A study of Rattus norvegicus with 36 samples.

Results

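The response of the F344 mammary gland to N-nitrosomethylurea (NMU) was measured 30 d after treatment, by setting the 3 arrays titled as F344 NMU treatment at 30 d against the 3 titled as F344 control at 30 d. These 6 arrays are part of 36, which form 12 groups of 3. NMU rats and control rats of the inbred strains F344 and Cop (Copenhagen) were injected at 55 days of age, controls with the saline vehicle, and glands were taken after 6 h, 1 d or 30 d. The response was described over all probe sets of an Affymetrix rat array, 31099 in all, of which 20749 were bright enough to test. Each value is the authors' log2 expression value of a probe set, so a difference of 1 is a doubling. The labels call the arrays biological replicates and do not say that each is a separate animal, so the p-values measure the spread between arrays. No source used here gives the dose, the sex of the rats, the stage of the oestrous cycle or a batch.

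NMU is a short-lived alkylating agent that methylates DNA, and a single dose can induce mammary carcinomas in susceptible rats such as F344, while Cop rats are resistant. The mammary gland of a young virgin rat is a tree of ducts and budding alveoli set in a fat pad with vessels, lymph nodes, nerves and nearby muscle. Its epithelium divides and makes some milk components in waves that follow the oestrous cycle. Whole glands were used, so fewer cells of a type and less RNA per cell cannot be told apart.

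The tissue label was borne out by its markers. The luminal keratin Krt18 read 10.30, 10.59 and 10.20 on the NMU arrays, against 10.48, 10.20 and 10.51 on the Control arrays. The adipocyte hormone Adipoq read 12.49, 12.16 and 12.38 in NMU glands, against 12.06, 11.97 and 12.15 in Control glands. Skeletal muscle RNA varied widely. Acta1, the actin of skeletal muscle fibres, read 13.20, 12.87 and 11.77 in NMU glands, against 4.29, 11.63 and 8.05 in Control glands. The F344 controls at 6 h and 1 d all lay between 13.28 and 13.77. Of 34 muscle genes measured, 33 were higher by mean in NMU glands and 21 had arms that did not overlap, against 9.09% of all probe sets with NMU higher. The median log2 change was 2.67 and 0 were called by limma, against 14 with array weights and 5 without Control replicate 2. The muscle score, a mean over these genes after each gene was centred on its average across 36 arrays, was 1.17, 0.79 and -0.43 in NMU glands, against -3.02, -0.51 and -2.40 in Control glands. NMU replicate 3 and Control replicate 2 thus held similar amounts of muscle RNA, and they were also close over all tested probe sets. Their root mean square log2 difference was 0.304, against 0.428 to 0.551 for the other pairs of an NMU and a Control array. Within arms it was 0.286 to 0.359 between NMU arrays and 0.349 to 0.454 between Control arrays.

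At 30 d after NMU, genes lower than in controls outnumbered those higher. With limma and Benjamini-Hochberg adjustment over all tested probe sets, 683 of 20749 (3.29%) were called at an adjusted p under 0.05. Of these, 545 (2.63% of those tested) were lower in NMU glands and 138 (0.665%) were higher, so 20.2% of the calls were rises. After quantile normalization the split was 273 higher and 566 lower, or 32.5% rises. Called falls had a median log2 change of -0.62 and called rises a median of 0.65. Taking 1 probe set per gene, 499 of 11509 genes (4.34%) were called, 420 (3.65%) of them lower and 79 (0.686%) higher. The 2 arms did not overlap for 613 of the 683, while 4471 of all 20749 probe sets (21.5%) had arms apart. At an unadjusted p under 0.05 there were 3886 (18.7%). NMU was lower in 12.5% and higher in 9.09% of all probe sets by arms apart. The median change over all genes was -0.047.

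The calls depended on single arrays. The count was 29 without Control replicate 1, 1109 without Control replicate 2 and 196 without Control replicate 3. It was 38 without NMU replicate 1, 166 without NMU replicate 2 and 1102 without NMU replicate 3. A model of the 6 arrays alone, which cannot borrow the spread of the other groups, called 2. With the muscle score as a covariate 12 were called. Under all of these settings each of the 683 kept its sign. The settings share most or all of their arrays with the main fit that chose the 683, so kept signs are no independent check. Only 22 probe sets were called in the whole set and also in each of the 6 omissions. They include 19 named genes, which were singled out after their values were seen. Of those, 17 were lower in NMU glands: Slc34a2, Tfrc with both its probe sets, Fam20c, Mfsd4a, Plin2, Pcna, Rfc5, H2az1, Nhp2, Erh, Alyref, Fubp1, Tardbp, Ran, Dimt1, Krr1 and Spcs2. The other 2, Sash1 and Sfrp4, were higher.

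**Figure D1:**
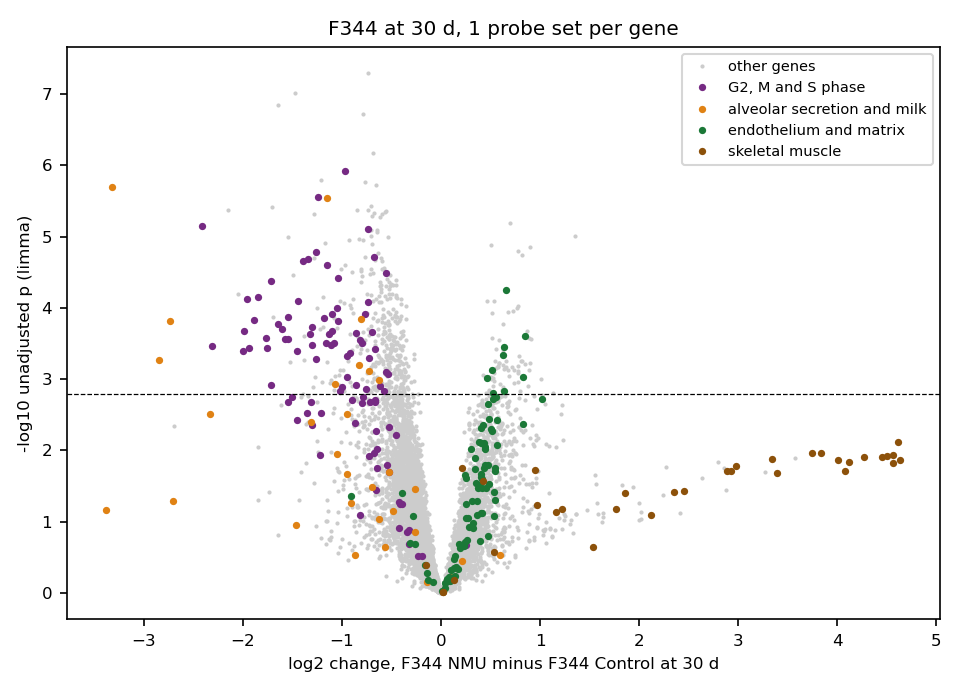
Log2 change (F344 NMU minus F344 Control at 30 d, x axis) against -log10 of the unadjusted limma p (y axis), with 1 point per gene and 4 gene groups in colour. The dashed line marks the largest p among called genes. Cell cycle genes and secretory genes lie at the left above the line, while skeletal muscle genes reach 4.64 on the x axis below it.

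Of the gene lists examined, that of cell division had the most calls. Of 53 measured genes of the G2 and M phases, 37 were called lower after NMU and 0 higher, against 3.65% of all genes called lower. All 53 changes were negative, with a median of -1.30. Cyclin A2, Ccna2, which drives S phase and entry into mitosis, read 3.34, 4.21 and 3.87 in NMU glands, against 7.47, 4.78 and 6.39 in Control glands. Its log2 change was -2.41 (SE 0.435, limma adjusted p = 0.00428). The arms did not overlap, but Control replicate 2 lay much nearer to the NMU arrays than to the other controls.

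That division among the controls ran through the group. The mitotic kinase Cdk1 read 5.68, 6.64 and 5.77 in NMU glands, against 9.09, 6.35 and 8.66 in Control glands (log2 change -2.0, adjusted p = 0.0234). The proliferation antigen Mki67 read 5.04, 6.52 and 5.62 in NMU glands, against 9.0, 6.19 and 7.80 in Control glands (change -1.94, adjusted p = 0.0228). In both genes Control replicate 2 was below NMU replicate 2, so the arms overlapped. Arms were apart for 14 of the 53 genes, against 12.5% of all tested probe sets with NMU lower. The score of the group was -0.55, -0.05 and -0.41 in NMU glands, against 1.81, -0.15 and 1.31 in Control glands. The 6 F344 controls at 6 h and 1 d scored between -0.68 and -0.34. Control replicates 1 and 3 at 30 d were therefore high in these genes against every other F344 array, and they were also the 2 arrays lowest in muscle RNA. The part of muscle content in this fall was not tested beyond the covariate, with which 0 of 53 were called and the median was -1.09.

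Which spindle and chromosome genes fell is shown by the named members. Ect2, which positions the cleavage furrow, changed by -2.31 and the spindle protein Nusap1 by -1.99. The kinesins Kif20b and Kif23 changed by -1.77 and -1.65. Kif15, a kinesin outside the list, read 4.50, 4.70 and 4.79 in NMU glands, against 7.33, 5.19 and 6.58 in Control glands (change -1.71, adjusted p = 0.00345), with arms apart. Tacc3, which stabilises spindle fibres, read 5.65, 6.39 and 6.30 in NMU glands, against 7.73, 6.82 and 7.52 in Control glands (change -1.24, SE 0.215, adjusted p = 0.00334). The centromere factor Mis18a changed by -1.49 and the checkpoint kinase Bub1b by -1.39. Foxm1, a transcription factor of mitotic genes, was at -0.39 with an adjusted p of 0.28, the smallest change of the group. The 37 calls became 0 without Control replicate 1, 52 without Control replicate 2, 5 without Control replicate 3, 0 without NMU replicate 1, 22 without NMU replicate 2 and 29 without NMU replicate 3.

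Promoters of mitotic genes often hold CCAAT boxes and, closer to the start site, a cell cycle homology region (CHR), through which the group is shut off in resting cells. In RefSeq sequence of build GRCr8, the 250 bases before the start were searched on both strands for CCAAT and for the CHR letters TTTGAA or TTCGAA. Both motifs were found in 24 of the 46 G2 and M genes with a promoter in the table (52.2%), against 422 of 9560 tested genes (4.41%). A match is a description of letters and shows no binding. The promoters of 3 members are shown, with both motifs in capitals. They are the called falls of smallest p among members that hold both motifs, so they were chosen by their response. Tacc3 and Ncapd2, a condensin subunit, differed in whether their arms overlapped, and Cks2, a binding partner of Cdk1, had the largest fall of the 3. All run 5′ to 3′ on the gene's strand and end at the base before the start. Tacc3 is at chr14:81289699-81289948, Ncapd2 at chr4:159677939-159678188 and Cks2 at chr17:13727520-13727769, each on the minus strand.
Tacc3: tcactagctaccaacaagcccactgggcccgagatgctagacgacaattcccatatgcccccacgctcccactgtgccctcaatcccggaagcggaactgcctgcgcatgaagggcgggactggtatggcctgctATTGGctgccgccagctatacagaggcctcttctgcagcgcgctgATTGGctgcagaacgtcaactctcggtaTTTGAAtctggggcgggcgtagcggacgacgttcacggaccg
Ncapd2: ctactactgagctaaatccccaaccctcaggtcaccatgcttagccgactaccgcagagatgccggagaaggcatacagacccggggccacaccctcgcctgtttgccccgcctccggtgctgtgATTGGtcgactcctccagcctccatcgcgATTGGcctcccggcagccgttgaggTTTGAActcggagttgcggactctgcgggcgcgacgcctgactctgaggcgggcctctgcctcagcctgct
Cks2: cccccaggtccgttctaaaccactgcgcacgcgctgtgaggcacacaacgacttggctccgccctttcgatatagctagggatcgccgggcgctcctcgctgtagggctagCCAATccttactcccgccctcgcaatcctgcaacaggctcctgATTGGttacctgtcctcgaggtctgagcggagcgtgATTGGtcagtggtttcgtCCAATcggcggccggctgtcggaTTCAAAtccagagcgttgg
Counting back from the start, Tacc3 has its CHR at -42 to -37 and its nearer CCAAT box, in reverse, at -70 to -66. In Ncapd2 the same pair is at -71 to -66 and -96 to -92. Ncapd2 read 4.29, 5.24 and 4.71 in NMU glands, against 6.61, 5.20 and 6.19 in Control glands (log2 change -1.26, adjusted p = 0.00624). Cks2, with 4 CCAAT boxes and a reverse CHR at -19 to -14, read 6.71, 7.50 and 6.84 in NMU glands, against 9.52, 7.41 and 9.28 in Control glands (change -1.72, adjusted p = 0.00945). In both genes Control replicate 2 overlapped the NMU arrays.

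Many DNA replication genes were called lower. Of 44 measured S phase genes, 24 were called lower and 0 higher, against 3.65% of all genes called lower. Their median log2 change was -0.69, and arms were apart with NMU lower in 28, against 12.5% of all tested probe sets. Pcna, the sliding clamp of DNA polymerases, read 9.85, 9.80 and 10.06 in NMU glands, against 11.16, 10.50 and 10.96 in Control glands (change -0.97, SE 0.159, adjusted p = 0.00247). Rfc5, a subunit of the clamp loader, read 7.44, 7.37 and 7.57 in NMU glands, against 8.59, 7.99 and 8.35 in Control glands by its better separated probe set (change -0.85, adjusted p = 0.00247). The other probe set of Rfc5 changed by -0.56. In these genes Control replicate 2 was again the lowest control, yet clear of every NMU array. The origin licensing helicase was lower through Mcm6 with -1.34, Mcm4 with -1.04 and Mcm3 with -1.04. Its subunit Mcm5 was at -0.66 and was not called. Mcm10, which is not a subunit of that helicase, was at -0.23 and was not called.

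The histone variant gene H2az1, outside the list, read 10.85, 10.94 and 11.09 in NMU glands, against 11.96, 11.50 and 11.80 in Control glands (change -0.79, adjusted p = 0.000665). The S phase score was -0.53, -0.35 and -0.31 in NMU glands, against 0.59, -0.12 and 0.41 in Control glands. The list's 24 calls became 1 without Control replicate 1, 30 without Control replicate 2, 7 without Control replicate 3, 1 without NMU replicate 1, 9 without NMU replicate 2 and 26 without NMU replicate 3. With the muscle covariate they became 0, at a median of -0.59.

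Genes switched on at the entry to S phase often carry binding letters of E2F factors. TTTCCCGC, TTTCGCGC, TTTGCCGC or TTTGGCGC, on either strand, stood in 11 of 40 S phase promoters (27.5%), against 304 of 9560 tested genes (3.18%). The promoters of Mcm6 and of Usp1, a deubiquitinase of repair and replication proteins, are shown as examples with their matches in capitals. These are the called falls of smallest p among members with a match. Usp1 lies outside the naming rule and was chosen after its values were seen. In Mcm6, at chr13:42404353-42404602 on the minus strand, matches on both strands overlap. Usp1 is at chr5:118702806-118703055 on the plus strand.
Mcm6: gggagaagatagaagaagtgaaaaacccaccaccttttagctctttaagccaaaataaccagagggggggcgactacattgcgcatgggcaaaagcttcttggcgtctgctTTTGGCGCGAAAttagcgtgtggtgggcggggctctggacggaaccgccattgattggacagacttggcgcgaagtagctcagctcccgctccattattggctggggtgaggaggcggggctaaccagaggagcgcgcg
Usp1: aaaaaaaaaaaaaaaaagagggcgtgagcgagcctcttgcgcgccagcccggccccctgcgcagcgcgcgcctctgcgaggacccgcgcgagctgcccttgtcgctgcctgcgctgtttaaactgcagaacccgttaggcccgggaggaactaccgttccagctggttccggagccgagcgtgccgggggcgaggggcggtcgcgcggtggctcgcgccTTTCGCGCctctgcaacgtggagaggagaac
Mcm6 read 6.14, 6.81 and 6.79 in NMU glands, against 8.32, 7.41 and 8.04 in Control glands (log2 change -1.34, SE 0.264, adjusted p = 0.00647). Usp1 read 7.80, 7.80 and 8.15 in NMU glands, against 8.92, 8.41 and 8.53 in Control glands (change -0.70, adjusted p = 0.0182), and its other probe set changed by -0.40 without a call. The arms were apart in Mcm6 and in the called Usp1 probe set.

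Repair genes were examined because NMU damages DNA by methylation. The list spans alkylation, base excision, mismatch and break repair. Of 35 repair genes, 5 were called lower and 0 higher, against 3.65% of all genes called lower. Their median log2 change was -0.34. Tdg, a glycosylase that removes mispaired thymine, read 7.10, 7.32 and 7.50 in NMU glands, against 7.96, 7.76 and 7.89 in Control glands (change -0.56, SE 0.099, adjusted p = 0.00345). The helicase Blm changed by -0.91, the abasic site nuclease Apex1 by -0.67, the recombination factor Xrcc2 by -0.63 and Parp2, a sensor of strand breaks, by -0.56. Mgmt, which repairs O6-methylguanine by direct transfer of the methyl group, read 7.69, 7.81 and 7.78 in NMU glands, against 7.49, 7.35 and 7.51 in Control glands. The arms were apart, but the change of 0.31 was not called (adjusted p = 0.23). The 5 calls became 0 without Control replicate 1 or NMU replicate 1, 1 without Control replicate 3, 2 without NMU replicate 2, 6 without NMU replicate 3 and 9 without Control replicate 2.

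**Figure D2:**
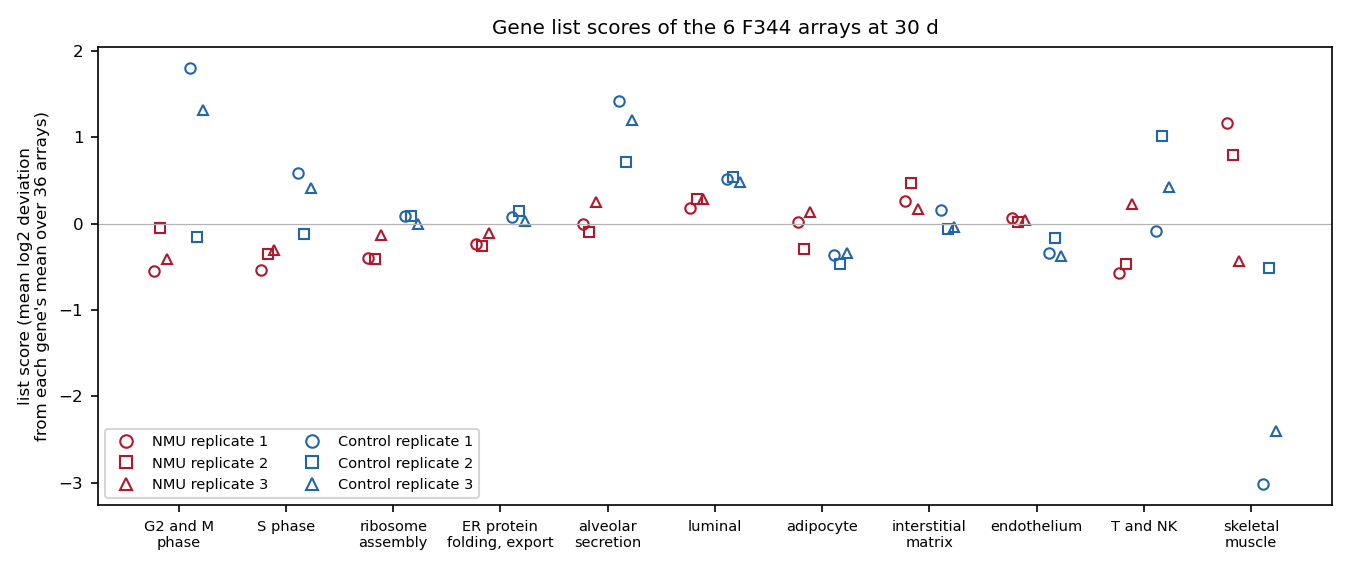
List scores of the 6 F344 arrays at 30 d (y axis, mean log2 deviation from each gene's mean over 36 arrays) for 11 gene lists, NMU in red left of Control in blue, with marker shape for the replicate number. In G2 and M phase, Control replicates 1 and 3 stand at 1.81 and 1.31 while Control replicate 2 at -0.15 lies among the NMU arrays, and skeletal muscle ranges from 1.17 to -3.02.

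Among genes of ribosome assembly the changes were small and nearly all negative. Of 47 genes of the nucleolus and of ribosome maturation, 9 were called lower and 0 higher, against 3.65% of all genes called lower. The median was -0.35, and 46 of 47 changes were negative. Arms were apart with NMU lower in 26, against 12.5% of all tested probe sets. Nhp2, a protein of the RNA-guided pseudouridine synthase, read 8.47, 8.60 and 8.81 in NMU glands, against 9.45, 9.13 and 9.62 in Control glands (change -0.77, SE 0.130, adjusted p = 0.00296). Gar1, its partner, read 7.30, 7.41 and 7.79 in NMU glands, against 8.21, 8.30 and 8.12 in Control glands (change -0.71, adjusted p = 0.00493). The arms were apart in both. Control replicate 2 was the lowest control for Nhp2 and the highest for Gar1. The score of the list was -0.39, -0.40 and -0.13 in NMU glands, against 0.09, 0.09 and -0.00 in Control glands.

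Within this list the RNA polymerase I and III subunit Polr1c changed by -0.61, and the box C/D proteins Nop56, Nop58 and Fbl by -0.52, -0.51 and -0.55. Nucleolin, Ncl, was at -0.20 and was not called. The rRNA methyltransferase Dimt1 and the small subunit factor Krr1, outside the list, changed by -0.66 and -0.62. The 9 calls became 2 without Control replicate 1, 9 without Control replicate 2, 5 without Control replicate 3, 1 without NMU replicate 1, 2 without NMU replicate 2, 22 without NMU replicate 3 and 1 with the muscle covariate.

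Some RNA processing genes were also called lower, here in families taken by gene symbol after the values were seen. Among 34 Sm, LSm and SF3 subunits of the spliceosome, 12 were called lower, against 3.65% of all genes, with a median of -0.34. They include Snrpa at -0.81, Snrpa1 at -0.65, Snrpf at -0.62 and Lsm2 at -0.60. Without Control replicate 1, Control replicate 3, NMU replicate 1 and NMU replicate 2, left out singly, the 12 calls became 1, 2, 0 and 3. Among 17 hnRNP genes, which package nascent transcripts, 4 were called lower, among them Hnrnpa1 at -0.60 and Hnrnpab at -0.57. Those 4 calls became 0 without Control replicate 1, 2 without Control replicate 3 and 1 without NMU replicate 1. Of 9 SR splicing factors 1 was called lower, with a median of -0.13. The export adaptor Alyref read 8.55, 8.66 and 8.94 in NMU glands, against 9.59, 9.35 and 9.43 in Control glands (change -0.74, SE 0.102, adjusted p = 0.00052). The RNA-binding protein Tardbp (TDP-43) read 8.70, 8.60 and 9.09 in NMU glands, against 9.51, 9.50 and 9.47 in Control glands (change -0.70, adjusted p = 0.00334). Its 3 tested probe sets changed by -0.70, -0.40 and -0.44, and the last was not called.

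Some genes of transport through the nuclear pore were called lower. Ran, the GTPase that sets the direction of that transport, read 10.70, 10.69 and 11.01 in NMU glands, against 11.61, 11.24 and 11.62 in Control glands (change -0.69, SE 0.110, adjusted p = 0.00177). Its GTPase-activating protein Rangap1 changed by -0.70 and the exporter Xpo1 by -0.60. Of 23 nucleoporins, 5 were called lower, against 3.65% of all genes, with Nup43 at -0.75 and Nup85 at -0.70. These 5 calls became 0 without Control replicate 1 and 1 without NMU replicate 1.

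Some genes of protein synthesis, folding and degradation were called lower as well. Among all tested genes 3.65% were called lower. Of 42 cytosolic ribosome proteins 1 was called lower (median -0.10), which is near that share. Of 73 mitochondrial ribosome proteins 8 were called lower (median -0.26), and the difference between the families was not tested. Of 16 subunits of the proteasome core, 6 were called lower, with Psmb3 at -0.45 and Psma1 at -0.41. Of 19 tRNA synthetases, 2 were called lower, Farsb at -0.54 and Nars1 at -0.46. In the heat shock and chaperone list 4 of 27 genes were called lower, and subunits of the chaperonin that folds actin and tubulin changed by -0.44 in Cct2, -0.40 in Cct3 and -0.34 in Tcp1. In purine and pyrimidine synthesis 4 of 20 genes were called lower. Among them were Ppat, which opens the purine pathway, at -0.75 and the serine hydroxymethyltransferases Shmt1 and Shmt2 at -0.58 and -0.50. The 6 proteasome and the 8 mitochondrial ribosome calls became 0 on leaving out any of Control replicates 1 and 3 and NMU replicates 1 and 2. Without Control replicate 2 they were 7 and 21, and without NMU replicate 3 they were 9 and 15. The 4 calls in purine and pyrimidine synthesis, the 4 among chaperones and the 2 among tRNA synthetases all became 0 without Control replicate 1 or either of NMU replicates 1 and 2.

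**Figure D3:**
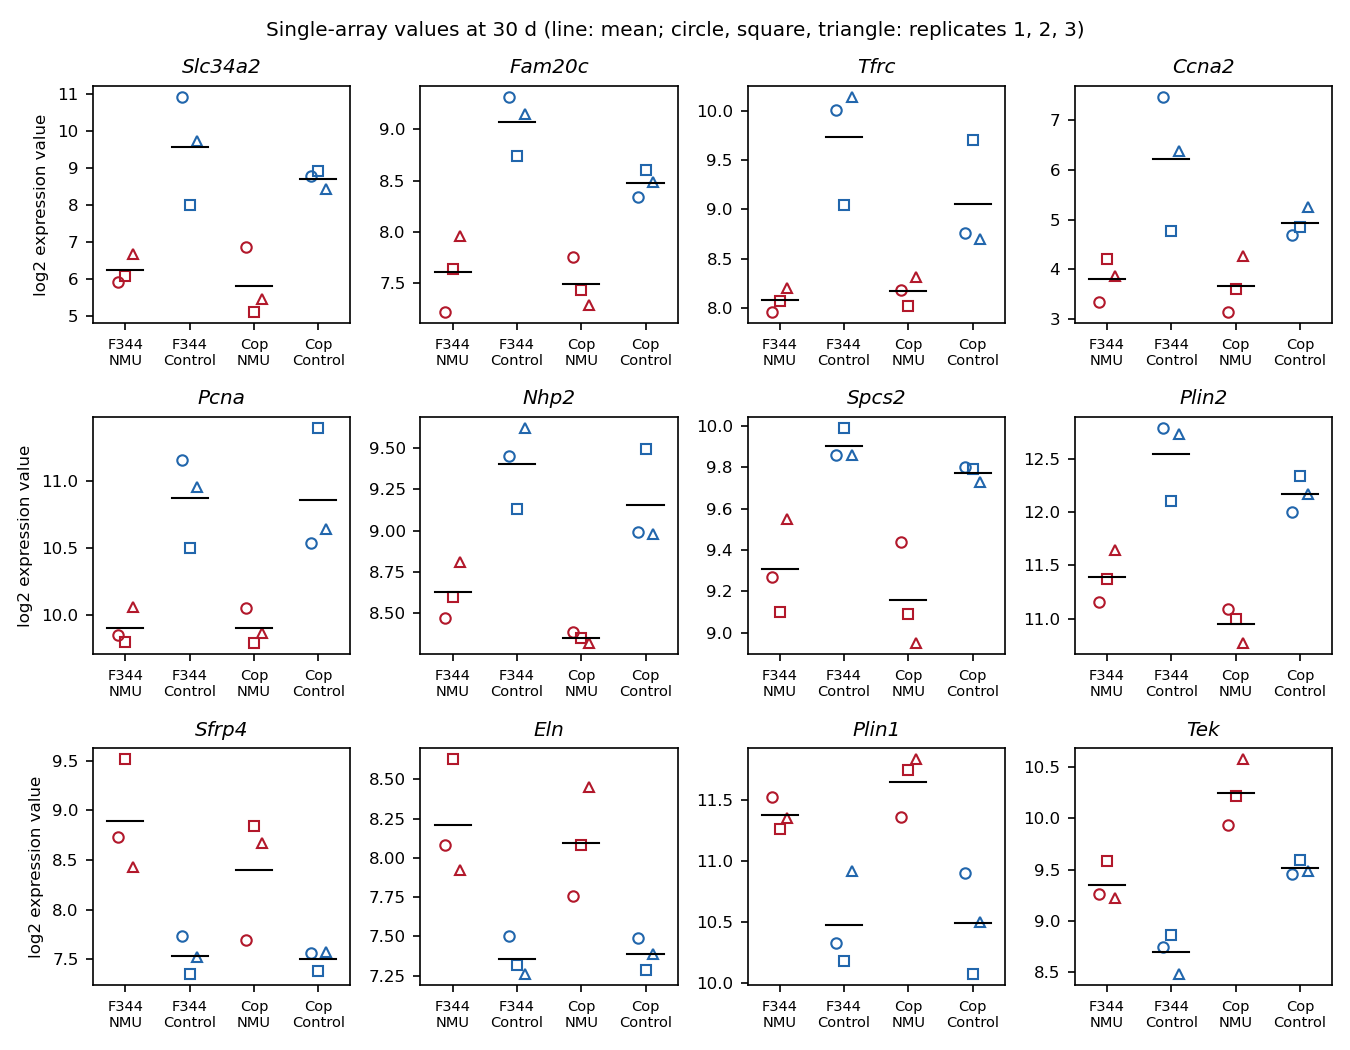
Log2 expression values (y axis, scale differs between panels) of 12 genes on the single arrays at 30 d, with NMU in red left of Control in blue, F344 left of Cop, and a line at each mean. In F344 the arms are apart in every panel, and for Slc34a2 they read 5.94 to 6.68 in NMU glands and 8.02 to 10.93 in Control glands.

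The largest single falls were in genes of alveolar secretion, the programme by which epithelial cells prepare to make milk. Of 21 measured genes, 8 were called lower and 0 higher, against 3.65% of all genes called lower. The median was -0.91, and arms were apart with NMU lower in 14, against 12.5% of all tested probe sets. Slc34a2, a sodium-phosphate cotransporter of the apical membrane, read 5.94, 6.10 and 6.68 in NMU glands, against 10.93, 8.02 and 9.74 in Control glands. Its change of -3.32 (SE 0.546, adjusted p = 0.00296) was the largest fall among called probe sets. The 12 F344 arrays at 6 h and 1 d read 4.98 to 6.62, so the NMU arrays at 30 d were close to that range and the controls were above it. Plin2, the coat protein of lipid droplets that become milk fat, read 11.16, 11.37 and 11.64 in NMU glands, against 12.79, 12.10 and 12.73 in Control glands (change -1.15, SE 0.197, adjusted p = 0.00334), with arms apart.

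The fatty acid carrier Fabp3 read 7.68, 7.53 and 7.07 in NMU glands, against 11.06, 8.50 and 11.28 in Control glands (change -2.85, adjusted p = 0.0275). Carbonic anhydrase 2, Car2, read 6.59, 7.01 and 6.87 in NMU glands, against 10.63, 7.82 and 10.25 in Control glands (change -2.74, adjusted p = 0.0154). In both genes, as in Slc34a2, Control replicate 2 was the lowest control and still above every NMU array. The secretory score was -0.00, -0.09 and 0.26 in NMU glands, against 1.43, 0.71 and 1.20 in Control glands. Stat5a, which relays prolactin to milk genes, changed by -0.63, the zinc transporter Slc30a4 by -0.73, the glucose transporter Slc2a1 by -0.81 and the epithelial factor Ehf by -1.07. Elf5, a regulator of alveolar fate outside the naming rule, read 8.85, 9.28 and 9.42 in NMU glands, against 10.81, 9.99 and 10.68 in Control glands. Its arms were apart, but the change of -1.31 was not called (adjusted p = 0.076).

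Most of the milk protein genes themselves were not called. Csn2, beta-casein, read 8.24, 11.78 and 6.50 in NMU glands, against 13.49, 9.88 and 13.30 in Control glands (change -3.38, SE 1.767, adjusted p = 0.309). NMU replicate 2 exceeded Control replicate 2, so the arms overlapped. Of 9 milk protein genes only Mfge8, the milk fat globule protein, was called, against 3.65% of all genes called lower. The change of Mfge8 was -0.83 (adjusted p = 0.0297). Fam20c, the Golgi kinase that phosphorylates caseins and other secreted proteins, read 7.21, 7.63 and 7.96 in NMU glands, against 9.32, 8.74 and 9.15 in Control glands. Its change was -1.47 (SE 0.209, adjusted p = 0.00052), with the arms well apart. The 8 secretory calls became 2 on leaving out any of Control replicates 1 and 3 and NMU replicates 1 and 2, 8 without Control replicate 2 and 7 without NMU replicate 3. With the muscle covariate 1 remained a call, at a list median of -0.57.

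Part of the protein export route was lower as well. Of 31 genes of the endoplasmic reticulum (ER), 5 were called lower and 0 higher, against 3.65% of all genes called lower. The median was -0.29, and arms were apart with NMU lower in 19, against 12.5% of all tested probe sets. Spcs2, of the complex that cuts signal peptides, read 9.27, 9.10 and 9.55 in NMU glands, against 9.86, 9.99 and 9.86 in Control glands (change -0.60, SE 0.107, adjusted p = 0.00345). The same complex was lower in Sec11c with -0.63 and Spcs1 with -0.35, with Spcs3 at -0.42 and not called (adjusted p = 0.058). The coat subunit Sec23b, for vesicles leaving the ER, changed by -0.61. The stress chaperone Hspa5 was at -0.29 (adjusted p = 0.186), and Xbp1, a transcription factor of secretory cells, was at -0.29 (adjusted p = 0.204). The 5 calls became 1 on leaving out Control replicate 1 or either of NMU replicates 1 and 2, 3 without Control replicate 3 and 8 without Control replicate 2 or NMU replicate 3.

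Single luminal and basal epithelial markers did not pass the test. Of 25 luminal genes and 19 basal genes 0 were called by limma, against 4.34% of all genes called. For lists of this size that is near the share. The medians were -0.26 and -0.04. Luminal changes were negative in 20 of 25 genes, and arms were apart with NMU lower in 10, against 12.5% of all probe sets. The luminal score was 0.18, 0.29 and 0.29 in NMU glands, against 0.52, 0.55 and 0.48 in Control glands. The tight junction gene Cldn7 read 7.62, 7.16 and 8.06 in NMU glands, against 9.04, 9.04 and 9.63 in Control glands (change -1.62, adjusted p = 0.0562), and its arms were apart. The epithelial adhesion gene Epcam was at -0.23 (adjusted p = 0.778) and the basal keratin Krt14 at -0.35 (adjusted p = 0.626).

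The transferrin receptor, through which dividing and secreting cells take up iron, was lower by both its probe sets. Tfrc read 5.55, 5.30 and 6.04 in NMU glands, against 8.20, 6.94 and 7.88 in Control glands by its dimmer probe set (change -2.05, SE 0.276, adjusted p = 0.00052). Its brighter probe set read 7.96, 8.07 and 8.21 in NMU glands, against 10.01, 9.05 and 10.14 in Control glands (change -1.65, SE 0.239). Tfrc in NMU glands also lay below the early F344 controls, which read 7.52 to 7.68 and 9.25 to 9.76. The iron exporter ferroportin, Slc40a1, gave 3 probe sets that disagreed. The dimmest read 7.06, 7.28 and 5.59 in NMU glands, against 5.18, 4.84 and 5.43 in Control glands (change 1.50, adjusted p = 0.011), and the brighter ones were at 0.58 and 0.31 and not called.

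Other large falls with arms apart were in transporters and signals. Slc28a3, a concentrative nucleoside transporter, read 4.32, 4.98 and 4.87 in NMU glands, against 8.13, 5.38 and 7.11 in Control glands (change -2.15, adjusted p = 0.00345). The potassium channel Kcnj15 read 4.89, 4.53 and 5.17 in NMU glands, against 6.71, 6.29 and 6.24 in Control glands (change -1.55, adjusted p = 0.00497). Each lost its call without Control replicate 1. Mfsd4a, a member of the major facilitator family of transporters, read 5.67, 5.62 and 6.01 in NMU glands, against 7.21, 6.65 and 7.07 in Control glands (change -1.21, adjusted p = 0.00296).

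The peptide apelin and its receptor on endothelium were singled out after their values were seen. Apln read 6.05, 6.46 and 6.28 in NMU glands, against 8.32, 6.62 and 8.04 in Control glands (change -1.39, adjusted p = 0.0498), and its other probe set was at -0.69 without a call. Aplnr read 7.16, 7.22 and 6.49 in NMU glands, against 6.38, 6.11 and 6.18 in Control glands (change 0.73, adjusted p = 0.0138). A dimmer probe set of Aplnr was at 0.19 and not called. The Apln call was kept in 1 of 6 omissions of an array, with changes of -1.91 to -1.06, and was lost after quantile normalization, with the floor, with no filter, with the compared arrays alone and with the muscle covariate. The Aplnr call was kept in 2 of 6 omissions and lost with the compared arrays alone and with the covariate.

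Rises were called in some genes of vessels and of connective tissue. Of 32 endothelial genes, 5 were called higher and 0 lower, against 0.686% of all genes called higher. The median was 0.41, and arms were apart with NMU higher in 19, against 9.09% of all tested probe sets. Tek, the angiopoietin receptor, read 9.26, 9.58 and 9.22 in NMU glands, against 8.75, 8.86 and 8.48 in Control glands (change 0.66, SE 0.139, adjusted p = 0.0104). Pecam1, the junctional adhesion protein of endothelium, read 9.09, 9.19 and 8.79 in NMU glands, against 8.20, 8.44 and 8.52 in Control glands (change 0.64, adjusted p = 0.0223). The others were Mmrn2 at 0.64, Acvrl1 at 0.52 and Egfl7 at 0.46, while the growth factor receptor Kdr was at 0.15 and not called. The endothelial score was 0.06, 0.03 and 0.04 in NMU glands, against -0.34, -0.17 and -0.37 in Control glands. Jag1, a Notch ligand outside the naming rule, read 8.78, 8.71 and 8.56 in NMU glands, against 7.85, 7.82 and 8.03 in Control glands (change 0.78, adjusted p = 0.0061). The 5 calls became 0 on leaving out Control replicate 1 or either of NMU replicates 1 and 2, and 2 without Control replicate 3. With the muscle covariate they became 0, at a median of 0.27.

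A few genes of the interstitial matrix were higher. Of 45 matrix genes, 3 were called higher and 0 lower, against 0.686% of all genes called higher. The median was 0.34, with 41 positive changes. Elastin, Eln, read 8.08, 8.63 and 7.92 in NMU glands, against 7.50, 7.32 and 7.26 in Control glands (change 0.85, SE 0.204, adjusted p = 0.0192). The microfibril protein Fbn1 read 11.52, 11.77 and 11.17 in NMU glands, against 11.06, 10.83 and 10.69 in Control glands (change 0.63, adjusted p = 0.0257). Pcolce, which helps trim procollagen, changed by 0.83. Arms were apart in all 3 genes. Ltbp1, which tethers latent TGF-beta to the matrix, changed by 0.89, and the crosslinking enzyme Lox by 0.95 in 1 probe set and 0.83 in another that was not called. The collagen Col1a1 read 13.35, 13.57 and 13.13 in NMU glands, against 12.84, 12.84 and 12.68 in Control glands. Its arms were apart, with a change of 0.57 that was not called (adjusted p = 0.0742). With the muscle covariate the 3 calls became 0, at a median of 0.18. They also became 0 on leaving out any of Control replicates 1 and 3 and NMU replicates 1 and 2, and were 4 without Control replicate 2 and 6 without NMU replicate 3.

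Among called probe sets with a gene symbol and arms apart, the largest rise after the Slc40a1 probe set above was in Sfrp4, a secreted antagonist of Wnt signals made by stroma. Sfrp4 read 8.73, 9.52 and 8.43 in NMU glands, against 7.74, 7.35 and 7.52 in Control glands (change 1.35, SE 0.253, adjusted p = 0.00493). Among 31 Wnt genes 1 was called higher and 2 lower, against 0.686% and 3.65% of all genes. The stem cell receptor Lgr4 and the transcription factor Tcf7l2 were the falls, with -0.65 and -0.56. The fat droplet coat Plin1 read 11.53, 11.26 and 11.35 in NMU glands, against 10.33, 10.18 and 10.92 in Control glands (change 0.90, adjusted p = 0.00564), the 1 call among 28 adipocyte genes, whose median was 0.32. The noncoding RNA Meg3 changed by 1.11 in 1 probe set and 0.82, without a call, in another. The pantetheinase Vnn1 changed by 1.13, the ferritin receptor Scara5 by 0.90 and the adaptor Sash1 by 0.70. The Vnn1 and Lgr4 calls were kept in 1 of 6 omissions of an array. Those of Meg3, Scara5 and Tcf7l2 were kept in 2 and that of Plin1 in 4. Sfrp4 and Sash1 kept theirs in all 6. All of these calls were lost with the compared arrays alone and with the muscle covariate.

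Few immune markers were called. Of 23 T and NK cell genes 1 was called lower, near the 3.65% of all genes called lower. It was the killer protease Gzma, which read 5.70, 5.42 and 6.29 in NMU glands, against 6.72, 6.82 and 6.67 in Control glands (change -0.94, adjusted p = 0.0277). It kept its call in 1 of 6 omissions, that of NMU replicate 3. The T and NK score was -0.57, -0.47 and 0.23 in NMU glands, against -0.08, 1.01 and 0.42 in Control glands. The B cell score was -0.73, -0.46 and 0.04 in NMU glands, against -0.33, 1.28 and -0.11 in Control glands. Control replicate 2 was thus highest in lymphocyte genes, and lymph node RNA in the samples was not measured apart from these markers. Of 12 B cell, 24 macrophage, 8 MHC class II and 26 interferon-stimulated genes 0 were called by limma, against 4.34% of all genes called. The scavenger receptor Cd163 read 8.20, 8.31 and 8.28 in NMU glands, against 7.09, 7.64 and 6.92 in Control glands (change 1.05, adjusted p = 0.0554), with arms apart and no call.

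No hormone signalling or p53 target gene was called. Of 30 hormone signalling genes and 23 p53 target genes 0 were called by limma, against 4.34% of all genes called. For lists of this size that is near the share. The medians were -0.01 and -0.09. The p53 target Cdkn1a, a brake on the cell cycle, read 7.67, 8.11 and 7.89 in NMU glands, against 6.71, 7.42 and 7.16 in Control glands, with arms apart and a change of 0.79 (adjusted p = 0.0829). Another p53 target, Mdm2, was at -0.03. The oestrogen receptor Esr1 was at -0.07 (adjusted p = 0.925). Its target Pgr, the progesterone receptor, read 5.06, 4.75 and 7.94 in NMU glands, against 5.84, 7.87 and 4.85 in Control glands. The growth factor Areg read 6.47, 6.45 and 10.75 in NMU glands, against 9.57, 10.91 and 8.75 in Control glands. NMU replicate 3 and Control replicate 2, the pair close over all probe sets, were thus the high arrays for both genes.

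**Figure D4:**
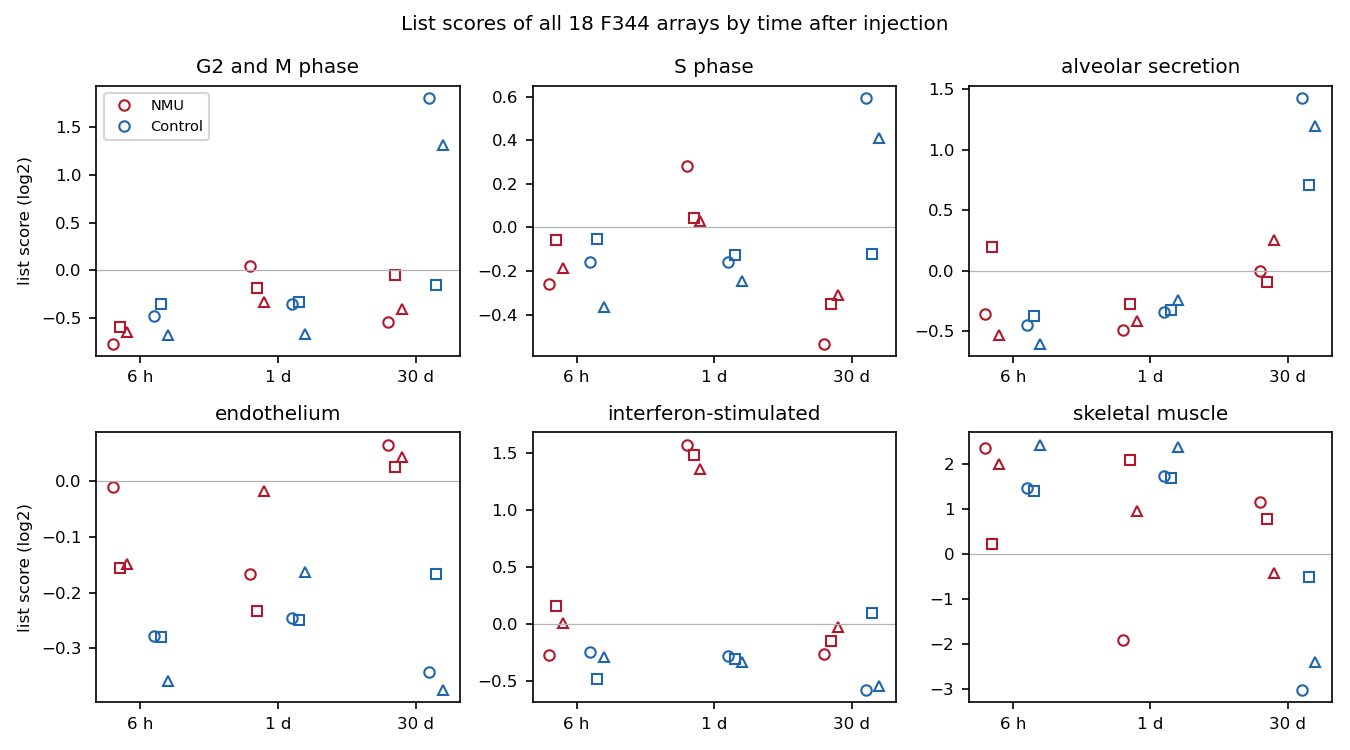
List scores (y axis, log2) of all 18 F344 arrays by time after injection (x axis), NMU in red left of Control in blue, with marker shape for the replicate number. In Control glands at 30 d the G2 and M phase score is 1.81, -0.15 and 1.31, against -0.55 to -0.05 in NMU glands. The secretion score at 30 d is 0.71 to 1.43 in Control glands and -0.09 to 0.26 in NMU glands. The interferon score peaks in NMU glands at 1 d at 1.57.

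Whether the 30 d response differs from the early one was tested within F344, by subtracting the mean of the 6 h and 1 d responses. Of 20749 probe sets 831 (4.01%) were called, 179 (0.863%) with a higher and 652 (3.14%) with a lower response at 30 d. By gene, 0.956% were called higher and 4.27% lower. After quantile normalization the split was 324 higher and 519 lower, or 38.4% against 21.5% higher. Of the 53 G2 and M genes 27 were called lower at 30 d than early, and of 44 S phase genes 24. The median response of the G2 and M genes was -0.19 at 6 h and 0.29 at 1 d. The interferon-stimulated genes had a median response of 0.27 at 6 h, 1.48 at 1 d and 0.18 at 30 d, and 11 of 26 were called lower at 30 d than early. Among matrix genes 10 of 45 were called higher at 30 d than early, with Fbn1 at a difference of 1.05.

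The early F344 controls also show on which side the arms stood. Among the 683 called probe sets, the NMU mean was nearer than the Control mean to the mean of the early controls in 54.0%, against 46.7% of all tested probe sets. The share was 57.1% of the 545 called falls and 42.0% of the 138 called rises. Age and time since injection cannot be told apart in this comparison.

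**Figure D5:**
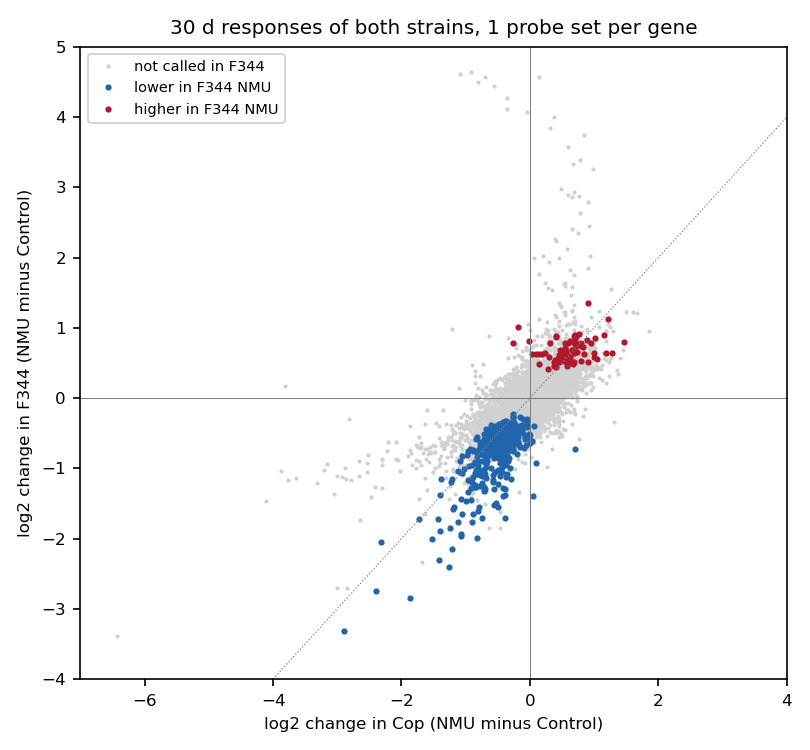
Log2 change at 30 d in F344 (y axis, NMU minus Control) against that in Cop (x axis), with 1 point per gene, red and blue for genes called higher and lower in F344, and a dotted line at equal change. Called genes lie mainly at the lower left and the upper right, and skeletal muscle genes reach 4.64 in F344 at -1.09 to 0.92 in Cop.

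The resistant strain gave values in the same direction for most called probe sets. Cop arms share no array with F344 arms. Of the 683 probe sets called in F344, 672 had the same sign in Cop, and 392 were also called there with that sign, which is 57.4% of the F344 calls and 19.1% of the 2055 Cop calls (9.90% of those tested, 4.42% higher and 5.48% lower). The median change of the 545 falls was -0.62 in F344 and -0.48 in Cop, and that of the 138 rises was 0.65 and 0.58. Across all tested probe sets, which are not independent replicates, the correlation of the changes was r = 0.64. The share of all tested probe sets with the same sign in both strains was not counted. Slc34a2 changed by -3.32 in F344 and -2.89 in Cop, and Pcna by -0.97 and -0.95. The difference in response, F344 minus Cop, had a 95% interval of -2.02 to 1.16 for Slc34a2 and of -0.47 to 0.45 for Pcna.

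By gene, 6.36% were called lower and 4.84% higher in Cop. Of the G2 and M genes 14 of 53 were called lower there, with a median of -0.82, and of the S phase genes 21 of 44. Of 32 endothelial genes 18 were called higher in Cop, with a median of 0.64. Milk protein genes were called lower in 5 of 9, with Csn2 at -6.43 (adjusted p = 0.0236). T and NK cell genes were called lower in 11 of 23, with a median of -1.30. Their score was 0.68, -1.65 and -1.60 in Cop NMU glands, against 0.82, 0.37 and 0.56 in Cop Control glands, so Cop NMU replicate 1 lay among the controls. None of the genes of these lists was called for a difference between the strains.

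No probe set was called by limma for a difference between the strains. The test of F344 minus Cop response called 0 of 20749 (0.00%), with 678 (3.27%) at an unadjusted p under 0.05. Without Cop NMU replicate 1 it called 45, without F344 Control replicate 2 it called 4 and without F344 NMU replicate 3 it called 1. That Cop array stood apart from its replicates, at root mean square differences of 0.596 and 0.645, and had a muscle score of -2.78, against 1.19 and 0.40 on the other Cop NMU arrays. The smallest p belonged to Phactr1, a regulator of actin and of phosphatase 1. It read 5.85, 5.47 and 5.71 in F344 NMU glands, against 6.77, 5.83 and 6.60 in F344 Control glands, a change of -0.72 with overlapping arms, while in Cop the change was 0.70. The difference of -1.42 (95% interval -2.02 to -0.83) had an adjusted p of 0.387. Neuropeptide W, Npw, had a difference of -1.02 (interval -1.53 to -0.51). The mitotic genes had wide intervals, with a difference of -1.14 (interval -2.40 to 0.12) for Ccna2 and -0.86 (interval -2.24 to 0.52) for Mki67.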

How the data were processed

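Whole-gland RNA of 36 arrays was analysed from the log2 values that the authors deposited in the series' value table, 1 per probe set and array. Per the labels' protocols, 1 ug of total RNA was labelled as biotin cRNA, and the submitters' processing notes name GCOS. No source used here states how the values were summarised, normalized and put on the log2 scale. They ran between 2.46 and 14.3, with array medians of 5.66 to 5.77, and were used as deposited. The number of arrays limits the precision.

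Groups were taken from the titles. Probe sets above the 40th percentile of their own array on at least 3 arrays were tested, after 57 control probe sets were left out. Symbols came from the platform annotation, under which 20832 probe sets had 1 symbol, 436 several and 9831 none. A gene is represented by its brightest tested probe set, and other probe sets are named where they differ. limma 3.58.1 in R 4.3.3 was fitted to all 12 groups with trend and robust moderation, so SEs pool the spread of 12 groups. P-values were adjusted by Benjamini-Hochberg over all 20749 tested probe sets. The fitting code was tested on simulated data. Tables and figures used Python 3.11.15, pandas 2.3.3, numpy 2.4.6 and matplotlib 3.10.9.

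The text names a part of these genes: the 15 largest rises and 15 largest falls among called probe sets with 1 symbol and arms apart, the 6 called members of smallest p from each list (2 where none was called), the 6 of smallest p in each direction for both differences of responses (3 where none was called), and a few standard markers. The genes compared and the 43 gene lists were chosen with earlier results of these data known. Outside this rule, and chosen after their values were seen, are the 10 families taken by symbol with their members and Apln, Aplnr, Cdk1, Dimt1, Ect2, Ehf, Elf5, Epcam, Erh, Fam20c, Fbl, Foxm1, Fubp1, H2az1, Hspa5, Jag1, Kdr, Krr1, Mcm3, Mcm5, Mcm10, Mdm2, Mfsd4a, Ncl, Nop58, Nusap1, Sash1, Spcs3, Stat5a, Tardbp, Usp1 and Xbp1.

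Alternatives were quantile normalization, a floor, other filters, plain moderation, array weights, the compared arrays alone, a replicate block, a skeletal muscle covariate and leaving out each array. Deviations of same-numbered F344 NMU and Control arrays from their group means were correlated at -0.091, -0.248 and -0.265 at 30 d. The values were -0.014, 0.35 and 0.507 at 6 h, and 0.249, -0.081 and 0.251 at 1 d. The main fit did not pair arrays by number, and whether a number marks arrays handled together is not known.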

Additional observations from a re-analysis of the deposited data

Results flagged for a closer look

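The F344 response at 30 d differed from the mean of the 6 h and 1 d responses, by a limma test of the difference itself, in 831 probe sets. Among the 6 called genes of smallest p with a lower response at 30 d, Cxcl11, an interferon-induced chemokine, differed most, by -2.87 (adjusted p = 9.77e-05). Its response was 5.22 at 1 d and 0.11 at 30 d. At 30 d it read 4.65, 4.50 and 4.98 in NMU glands, against 4.27, 5.17 and 4.36 in Control glands, which overlap. The cytotoxic protease Gzmb differed by -1.81, with a response of 2.44 at 1 d and -0.45 at 30 d. Genes with a response near 0 or above early and a fall at 30 d were the clamp loader subunit Rfc5 with a difference of -1.15, the ribosome assembly gene Gar1 with -1.06, the RNA exosome subunit Exosc8 with -0.94 and the export adaptor Alyref with -0.87.

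In the other direction, stromal genes were below 0 early and higher at 30 d. The Wnt antagonist Sfrp4 differed by 1.76, the microfibril gene Fbn1 by 1.05 and the matrix glycoprotein Sparc by 1.02. Limch1 differed by 1.27, Cachd1 by 1.07 and the pyrophosphate transporter Ankh by 0.82.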

How the results depend on the processing

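The 683 F344 calls at 30 d became 1640 with array weights, 2 with the compared arrays alone and 12 with the skeletal muscle covariate, and ran between 29 and 1109 on leaving out 1 array. The other alternatives gave 524 to 839, and each of the 683 kept its sign wherever it was measured. These settings reuse the arrays on which the 683 were chosen, so kept signs are no independent check. The F344 minus Cop test kept 0 calls except on leaving out single arrays, where it ran between 0 and 45. The 831 early differences became 2473 with array weights and 9 with the covariate, and ran between 210 and 1255 on leaving out 1 array, with 210 without NMU replicate 1, 287 without Control replicate 1, 329 without NMU replicate 2 and 1255 without NMU replicate 3. With the replicate number as a block the counts were 579, 0 and 643, and 485 of the 683 calls were kept. Named genes that changed sign were all uncalled. With the covariate Krt18 was at 0.18 and Ptprc at 0.00. On leaving out 1 array RT1-DMa ran between -0.29 and 0.09, Cxcl11 between -0.05 and 0.40, Esr1 between -0.18 and 0.12, Pgr between -1.28 and 0.58 and Krt18 between -0.14 and 0.05. The cause of these changes was not tested. The design leaves 3 arrays per arm, and the muscle score and the arms move together, so muscle content and treatment cannot be fully told apart. Dim probe sets were not tested, and normalization before deposit was not checked.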
